A study of Mus musculus with 24 samples.

Results

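The 10 genes described here encode the TGF-beta ligands (*Tgfb1*, *Tgfb2*, *Tgfb3*), their receptors (*Tgfbr1*, *Tgfbr2*, *Tgfbr3*) and the latent TGF-beta binding proteins (*Ltbp1*, *Ltbp2*, *Ltbp3*, *Ltbp4*), among 14763 genes tested on the array. They were taken by gene symbol, whatever their signal, and carry 24 probe sets, of which 20 passed a filter on low signal. Each gene is given by its brightest probe set, and in all 10 genes that probe set was above the 40th percentile of its array on each of 24 arrays, so the filter removed no member. *Tgfb1* and *Ltbp4* lie on chromosome 7, *Tgfb3* and *Ltbp2* on chromosome 12, and the others on 6 different chromosomes.

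Hearts of FVB/N mice were profiled 8 weeks after an operation done at 4 months of age, with 4 arrays in each of 6 groups: dnPI3K MI, dnPI3K sham, caPI3K MI, caPI3K sham, Ntg MI and Ntg sham. MI is a surgical myocardial infarction and sham the control operation. dnPI3K mice carry a dominant negative phosphoinositide 3-kinase (PI3K) transgene that lowers PI3K activity and caPI3K mice a constitutively active one that raises it, both expressed in the heart, while Ntg mice carry neither. The labels describe poor function with fibrosis in Ntg MI hearts, worse function and more fibrosis in dnPI3K MI hearts, and name no sex. On the caPI3K MI arrays 1 tag is named caPI3K-sham, but the title, the description and the tag's own text give MI, which was used. Hearts were homogenized one by one, but the sources do not say whether every array stands for its own mouse. The p-values therefore reflect array-to-array spread only, which may be technical.

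TGF-beta is made as a latent complex, in which the mature dimer stays bound to its own propeptide and, in most tissues, to a latent binding protein that anchors it in the matrix on fibrillin microfibrils. Integrins and proteases release it, and the freed ligand joins the type II receptor (*Tgfbr2*) with the type I receptor (*Tgfbr1*), whose kinase phosphorylates Smad2 and Smad3. In the infarcted heart the pathway is best known for turning fibroblasts into matrix-producing cells during scar formation. *Ltbp2* is the member of its family that does not bind latent TGF-beta and acts mainly in microfibrils.

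Some arrays stood apart. Ntg sham replicate 4 was the highest Ntg sham array for 8 of the 10 genes, and correlated better with the Ntg MI arrays (mean r 0.957) than with the other Ntg sham arrays (0.948). Ntg sham replicate 3 had 0.954 with either. For dnPI3K MI replicates 2, 3 and 4 it was 0.948 to 0.952 with the dnPI3K sham arrays, against 0.946 to 0.947 with their own group. The own-group values are lowered by replicate 1 of that group, so they do not show that replicates 2, 3 and 4 resemble sham arrays. Y-linked genes were bright on 3 of the 4 caPI3K sham arrays (mean log2 signal of at least 9.88, against at most 6.34 on the other 21). No array of another group had this signal. In each comparison with caPI3K sham hearts, operation or genotype therefore cannot be told apart from what sets these arrays apart. Median signal was 102 to 150, the top value being that of dnPI3K MI replicate 1. That array also had the lowest mean r with its own group (0.921) and was the lowest dnPI3K MI array for 7 of the 10 genes. Several, but not all, of the values that move without Ntg sham replicate 4 or without the arrays with Y-linked signal are given both ways. Sham arrays 415 to 418, replicates 1 and 2 of Ntg sham and of dnPI3K sham, had the highest 99th percentiles of signal, at 18709 to 20892. Cardiomyocyte markers were bright on all arrays, with 6 genes summing to 239880 to 364450, as the heart label requires. RNA is from bulk tissue, so more cells of a type and more RNA per cell cannot be told apart.

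Several of these genes were higher after infarction, most of them in dnPI3K hearts. In dnPI3K hearts 7 of the 10 genes rose after MI (*Tgfb2*, *Tgfb3*, *Tgfbr1*, *Tgfbr2*, *Ltbp2*, *Ltbp3* and *Ltbp4*), where 9.37% of all tested genes were called and 4.19% rose. In caPI3K hearts 3 rose (*Tgfbr1*, *Ltbp2* and *Ltbp4*), where 1.11% of all genes were called and 0.853% rose. In Ntg hearts 4 rose (*Tgfb2*, *Tgfb3*, *Ltbp2* and *Ltbp3*), where 0.772% were called and 0.677% rose. No member fell in any of these comparisons. An unadjusted p under 0.05 was found for 9, 7 and 7 members in dnPI3K, caPI3K and Ntg hearts, where 21.9%, 12.1% and 12% of all genes had one. The 4 MI arrays lay above the 4 sham arrays for 7, 7 and 3 members, where 6.34%, 5.09% and 2.22% of all genes did so. The median change of the 10 genes was 0.60 log2 units in dnPI3K, 0.39 in caPI3K and 0.29 in Ntg hearts, and that of all genes 0.01, -0.0018 and -0.0049. A gene was called at an adjusted p under 0.05 (limma, Benjamini-Hochberg over all tested genes), and changes are differences of mean log2(signal + 11.2), which understates the change of dim genes.

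**Figure D1:**
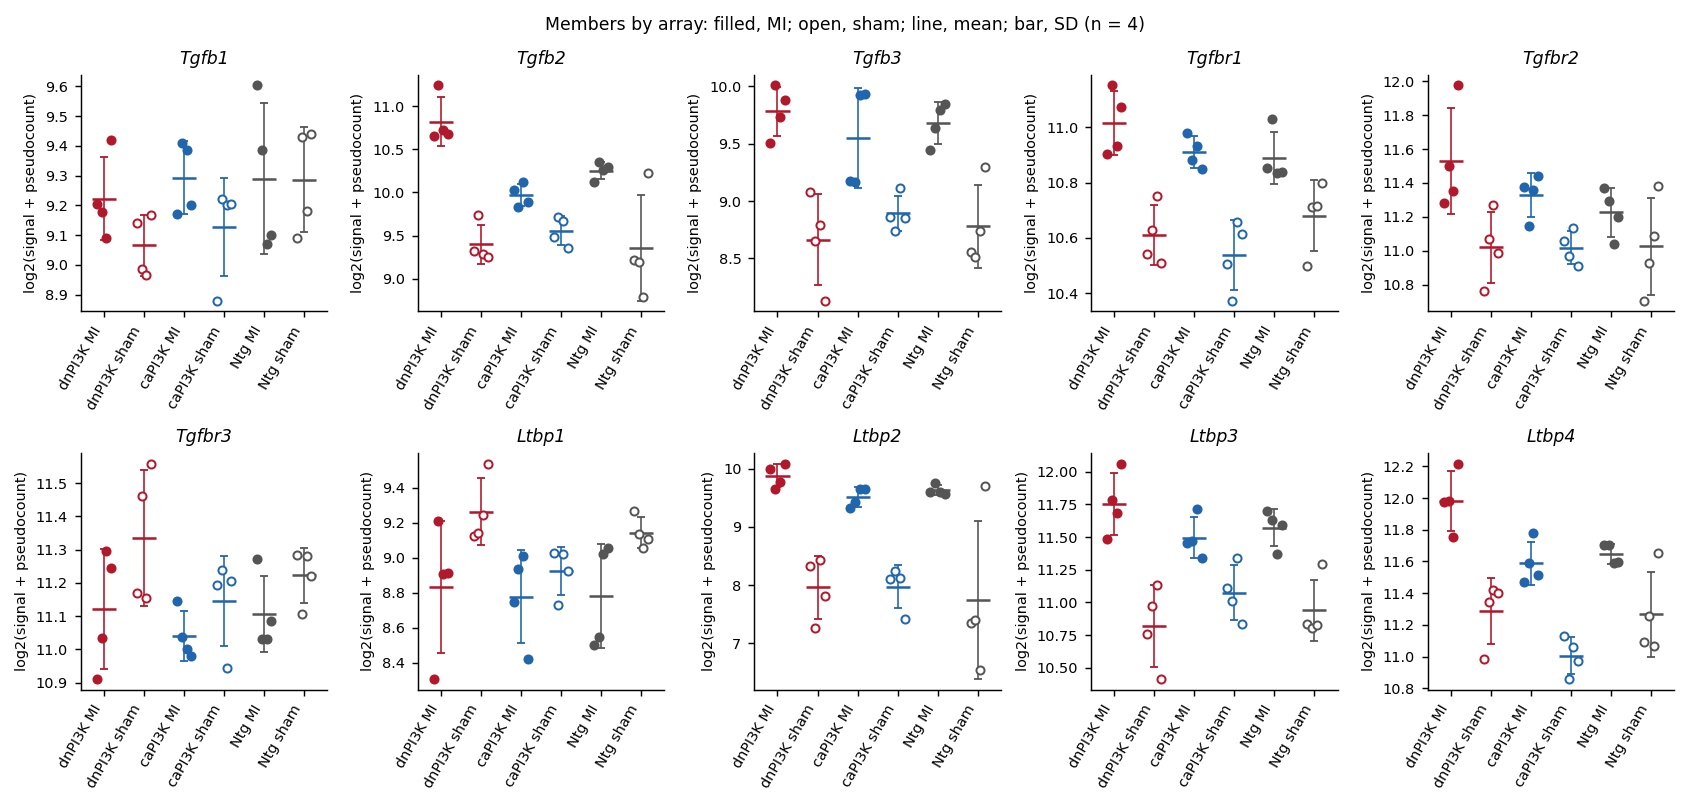
Signal of the 10 genes on each array, as log2 of signal plus the pseudocount (vertical axes, which differ in range between panels), in the 6 groups. Filled points are MI arrays and open points sham arrays, with the mean as a line and the SD as a bar (n = 4); *Tgfb2* on the dnPI3K MI arrays lies above the other 20 arrays, and 1 open Ntg point stands high for *Tgfb2*, *Ltbp2* and *Ltbp3*.

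The ligands did not move alike. *Tgfb2*, the isoform needed for heart development in the mouse, had the widest differences between groups. Its signal was 1597, 2415, 1678 and 1625 on the dnPI3K MI arrays, against 627, 841, 611 and 599 on the dnPI3K sham arrays. On the caPI3K MI arrays it was 1037, 901, 1102 and 936, against 703, 827, 806 and 643 on the caPI3K sham arrays. On the Ntg MI arrays it was 1099, 1294, 1210 and 1243, against 584, 573, 431 and 1185 on the Ntg sham arrays. The dnPI3K MI arrays thus lay above each of the other 20 arrays, the highest of which read 1294, a pattern shared by 0.63% of tested genes and by no other member. MI and sham arrays overlapped only in Ntg hearts, through sham replicate 4.

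*Tgfb2* rose after MI by 1.43 log2 units in dnPI3K hearts (SE 0.19, adjusted p = 7.47e-05), a 2.69-fold change (95% confidence interval 2.05 to 3.53). Its change was 0.41 in caPI3K hearts (SE 0.19, adjusted p = 0.374), and 0.27 to 0.62 over 19 alternative settings (other processing or arrays left out). It did not pass there although the 4 MI arrays lay above the 4 sham arrays. It rose by 0.90 in Ntg hearts (SE 0.19, adjusted p = 0.0209), and by 1.19 (adjusted p = 7.97e-06) without Ntg sham replicate 4. Among all genes its change ranked 99 from the top in dnPI3K hearts, 1457 in caPI3K hearts and 289 in Ntg hearts.

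The region upstream of *Tgfb2* is shown because this gene had the largest rise of the ligands in dnPI3K hearts and fell short of a call in caPI3K hearts. The window is chr1:186705990-186706239 on the minus strand of GRCm38.p6 (RefSeq), the 250 bases before the annotated start used, written 5′ to 3′. Longer transcript models of the gene begin up to 3708 bases further upstream. Capitals mark matches to the motifs named below.
Tgfb2 promoter: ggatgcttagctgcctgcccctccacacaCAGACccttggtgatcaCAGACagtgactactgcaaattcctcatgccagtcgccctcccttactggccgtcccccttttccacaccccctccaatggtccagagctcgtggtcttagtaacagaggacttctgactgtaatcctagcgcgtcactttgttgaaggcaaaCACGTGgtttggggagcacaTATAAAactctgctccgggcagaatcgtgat
The motifs, searched on both strands, were the Smad-binding CAGAC, the AP-1 site TGANTCA, the E-box CACGTG, the cyclic AMP response element TGACGTCA, the TATA box TATAAA, the FoxO site GTAAACA and the TEAD site CATTCC. The *Tgfb2* window held CAGAC at 221 and 204 bases before the start, CACGTG at 51 and TATAAA at 31, none of which overlap. Over 32851 mouse promoter windows of the same length, 42.2% held CAGAC, 6.02% CACGTG and 12.4% TATAAA. The motifs without a match here occurred in 6.75% of windows for TGANTCA, 1.55% for TGACGTCA, 3.17% for GTAAACA and 12.6% for CATTCC. A match is a run of letters and not a measured binding site.

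The array reads *Tgfb2* through 4 probe sets, and their changes after MI were above 0 in all 3 genotypes. With each probe set tested by itself and p-values adjusted over probe sets, 3 of 4 were called in dnPI3K hearts (changes of 1.13 to 1.45 over the 4), 0 of 4 in caPI3K hearts (0.13 to 0.41) and 1 of 4 in Ntg hearts (0.74 to 1.23). The probe set not called in dnPI3K hearts was the dimmest, at 1.13 (SE 0.38, adjusted p = 0.0785). Ntg sham replicate 4 was the highest Ntg sham array on each of the 4.

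**Figure D2:**
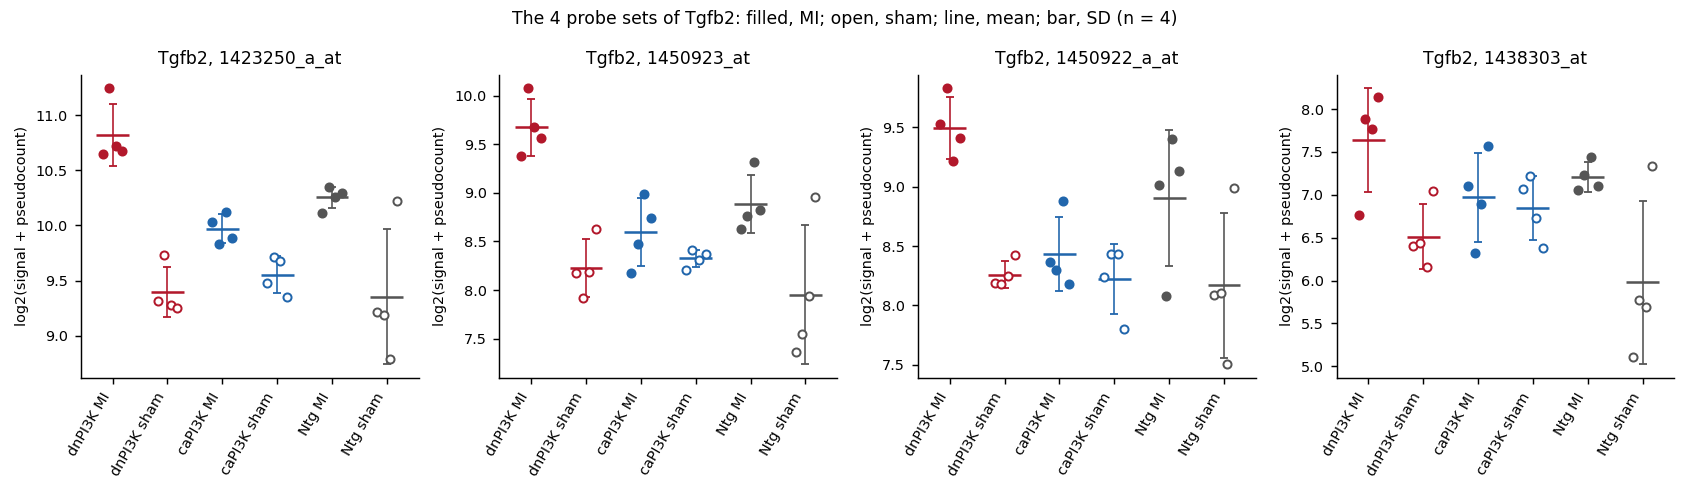
The 4 probe sets of *Tgfb2*, brightest at the left, as log2 of signal plus the pseudocount on each array in the 6 groups. Filled points are MI arrays, open points sham arrays, lines means and bars SDs (n = 4); the dnPI3K MI mean is the highest of the 6 in each panel.

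*Tgfb3*, an isoform linked to palate fusion and to scar quality, followed *Tgfb2* in direction. It had 717, 1020, 838 and 930 on the dnPI3K MI arrays, against 530, 391, 432 and 269 on the dnPI3K sham arrays. It had 567, 563, 959 and 967 on the caPI3K MI arrays, against 455, 417, 541 and 452 on the caPI3K sham arrays. It had 688, 784, 876 and 912 on the Ntg MI arrays, against 366, 354, 417 and 620 on the Ntg sham arrays. In each genotype the MI arrays lay above the sham arrays, and the caPI3K MI arrays fell into a low pair and a high pair. *Tgfb3* rose by 1.12 in dnPI3K hearts (SE 0.20, adjusted p = 0.000673) and by 0.90 in Ntg hearts (SE 0.20, adjusted p = 0.0249; 1.08 without Ntg sham replicate 4). The change of 0.66 in caPI3K hearts (SE 0.20, adjusted p = 0.113) did not pass.

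*Tgfb1*, the isoform most often studied in fibrosis, did not pass after MI in any genotype. It had 579, 568, 534 and 674 on the dnPI3K MI arrays, against 554, 496, 489 and 564 on the dnPI3K sham arrays. It had 566, 669, 659 and 578 on the caPI3K MI arrays, against 460, 586, 578 and 579 on the caPI3K sham arrays. It had 767, 657, 527 and 538 on the Ntg MI arrays, against 535, 679, 569 and 683 on the Ntg sham arrays. Groups overlapped in each genotype. The changes were 0.16 (95% confidence interval -0.10 to 0.42) in dnPI3K hearts, 0.17 (-0.094 to 0.42) in caPI3K hearts and 0.0043 (-0.26 to 0.26) in Ntg hearts. Each interval is that of the brightest probe set and ends below a change of 0.5 log2 units. The test does not show that the transcript stayed the same. A second, much dimmer probe set was not called either, but had 1.00 in dnPI3K hearts, 0.047 in caPI3K and 0.20 in Ntg hearts. It read 32.2 to 163 on the dnPI3K sham arrays and 108 to 287 on the dnPI3K MI arrays.

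Among the receptors, *Tgfbr1* was called after MI in both transgenic lines, *Tgfbr2* in dnPI3K hearts, and *Tgfbr3* in none. *Tgfbr1*, the type I receptor kinase, had 1906, 2265, 1945 and 2145 on the dnPI3K MI arrays, against 1481, 1574, 1715 and 1448 on the dnPI3K sham arrays. It had 2006, 1877, 1943 and 1832 on the caPI3K MI arrays, against 1442, 1315, 1605 and 1557 on the caPI3K sham arrays. It had 1837, 2079, 1817 and 1819 on the Ntg MI arrays, against 1435, 1665, 1669 and 1769 on the Ntg sham arrays. The MI arrays were above the sham arrays in each genotype, Ntg sham replicate 4 included. *Tgfbr1* rose by 0.41 in dnPI3K hearts (SE 0.084, adjusted p = 0.00218) and by 0.37 in caPI3K hearts (SE 0.084, adjusted p = 0.0228), while 0.21 in Ntg hearts (SE 0.084, adjusted p = 0.279) did not pass. Its other 2 probe sets were not called in any genotype, and 1 of them had -0.24 in Ntg hearts, so the calls rest on the brightest one. In caPI3K hearts the call was lost without sham replicate 1 or 2 or MI replicate 1 or 3 (0.32 to 0.41 over the 8 arrays left out in turn).

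*Tgfbr2*, the type II receptor that binds the ligand first, had 2477, 2889, 2602 and 4016 on the dnPI3K MI arrays, against 1726, 2137, 2454 and 2021 on the dnPI3K sham arrays. It had 2652, 2251, 2616 and 2774 on the caPI3K MI arrays, against 2120, 1998, 2239 and 1918 on the caPI3K sham arrays. It had 2640, 2501, 2092 and 2345 on the Ntg MI arrays, against 1660, 1941, 2165 and 2656 on the Ntg sham arrays. MI and sham arrays separated in dnPI3K and caPI3K hearts and overlapped in Ntg hearts. The rise of 0.51 in dnPI3K hearts (SE 0.13, adjusted p = 0.0159) passed, and was 0.36 to 0.59 with single arrays left out, of which 6 of 8 fits kept the call. It was lost without dnPI3K sham replicate 1 (0.42, adjusted p = 0.0832) and without dnPI3K MI replicate 4 (0.36, adjusted p = 0.0904). The changes of 0.31 in caPI3K hearts (adjusted p = 0.329) and 0.20 in Ntg hearts (adjusted p = 0.619) did not pass. Of the 2 *Tgfbr2* probe sets that passed the filter, 1 was called in dnPI3K hearts when each was tested by itself. The dimmer one had a mean log2 signal of 8.58 on dnPI3K MI and 8.09 on dnPI3K sham arrays, and 8.11 on both Ntg MI and Ntg sham arrays.

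*Tgfbr3* encodes betaglycan, a co-receptor without a kinase that presents *Tgfb2* to the type II receptor. It had 1914, 2085, 2503 and 2417 on the dnPI3K MI arrays, against 2295, 2807, 2269 and 3006 on the dnPI3K sham arrays. It had 2255, 2091, 2037 and 2008 on the caPI3K MI arrays, against 2333, 2403, 1959 and 2351 on the caPI3K sham arrays. It had 2462, 2079, 2083 and 2165 on the Ntg MI arrays, against 2480, 2192, 2475 and 2378 on the Ntg sham arrays. MI and sham arrays overlapped in each genotype. The changes were -0.22 (SE 0.097, adjusted p = 0.186) in dnPI3K hearts, -0.10 in caPI3K hearts and -0.12 in Ntg hearts, none of which passed, and the second probe set was also below 0 in the 3 genotypes (-0.20, -0.36 and -0.53).

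The latent binding proteins held the widest range. *Ltbp2* had 1016, 797, 864 and 1078 on the dnPI3K MI arrays, against 310, 143, 335 and 214 on the dnPI3K sham arrays. It had 627, 680, 796 and 797 on the caPI3K MI arrays, against 265, 290, 269 and 160 on the caPI3K sham arrays. It had 767, 851, 764 and 748 on the Ntg MI arrays, against 151, 158, 81.6 and 820 on the Ntg sham arrays. The 12 MI arrays, at 627 or more, were above 11 of the 12 sham arrays, at 335 or less, and the exception was Ntg sham replicate 4.

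*Ltbp2* rose in the 3 genotypes and was among the largest changes of all genes, ranking 17 from the top in dnPI3K, 23 in caPI3K and 9 in Ntg hearts. The rise was 1.92 log2 units in dnPI3K hearts (SE 0.38, adjusted p = 0.00158), 3.78-fold (95% confidence interval 2.21 to 6.49). It was 1.54 in caPI3K hearts (SE 0.38, adjusted p = 0.0405), and with any 1 of these 8 arrays left out the change kept its direction (1.36 to 1.63) but did not pass in any of the 8 fits. It was 1.88 in Ntg hearts (SE 0.38, adjusted p = 0.015), and 2.53 (SE 0.24, adjusted p = 1.25e-07) without Ntg sham replicate 4.

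The windows upstream of *Ltbp2* and *Ltbp3* are shown because, with *Tgfb2* and *Tgfb3*, these genes rose in both dnPI3K and Ntg hearts. They are chr12:84876492-84876741 on the minus strand and chr19:5740650-5740899 on the plus strand of GRCm38.p6 (RefSeq), each the 250 bases before the annotated start, 5′ to 3′, with motif matches in capitals. A longer model of *Ltbp2* begins 67 bases further upstream.
Ltbp2 promoter: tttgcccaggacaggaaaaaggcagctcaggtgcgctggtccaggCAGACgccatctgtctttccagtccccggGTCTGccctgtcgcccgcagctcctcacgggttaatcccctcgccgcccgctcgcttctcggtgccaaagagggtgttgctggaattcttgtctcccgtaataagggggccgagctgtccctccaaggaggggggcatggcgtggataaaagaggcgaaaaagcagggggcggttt
Ltbp3 promoter: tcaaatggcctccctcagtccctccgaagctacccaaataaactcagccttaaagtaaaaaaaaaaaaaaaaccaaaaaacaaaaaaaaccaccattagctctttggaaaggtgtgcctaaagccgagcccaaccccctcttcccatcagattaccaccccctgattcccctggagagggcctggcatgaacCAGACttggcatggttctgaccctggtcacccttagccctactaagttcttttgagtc
The *Ltbp2* window held CAGAC at 205 bases before the start and its reverse complement at 176, and the *Ltbp3* window held CAGAC at 58. CAGAC was the only one of the 7 motifs with a match in the *Tgfb2*, *Ltbp2* and *Ltbp3* windows alike, and 42.2% of all windows held it.

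*Ltbp3*, which helps to secrete latent TGF-beta, had 2864, 3509, 3271 and 4264 on the dnPI3K MI arrays, against 1720, 2001, 2238 and 1354 on the dnPI3K sham arrays. It had 2796, 2831, 3346 and 2585 on the caPI3K MI arrays, against 2196, 2057, 2581 and 1820 on the caPI3K sham arrays. It had 3315, 3155, 2637 and 3070 on the Ntg MI arrays, against 1815, 1774, 1805 and 2498 on the Ntg sham arrays. MI arrays lay above sham arrays in each genotype, in caPI3K hearts by a narrow gap. *Ltbp3* rose by 0.93 in dnPI3K hearts (SE 0.14, adjusted p = 0.000178) and by 0.63 in Ntg hearts (SE 0.14, adjusted p = 0.0251; 0.75 without Ntg sham replicate 4). In caPI3K hearts 0.42 (SE 0.14, adjusted p = 0.161) did not pass. The second probe set was called in dnPI3K hearts at 1.08 but had 0.15 in caPI3K and 0.18 in Ntg hearts, so the Ntg call rests on 1 of 2 probe sets.

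*Ltbp4*, which also takes part in elastic fibre assembly, had 4005, 4025, 3442 and 4750 on the dnPI3K MI arrays, against 2012, 2584, 2734 and 2698 on the dnPI3K sham arrays. It had 2825, 3076, 3504 and 2912 on the caPI3K MI arrays, against 2232, 1846, 2123 and 1996 on the caPI3K sham arrays. It had 3321, 3319, 3076 and 3080 on the Ntg MI arrays, against 2177, 2438, 2133 and 3206 on the Ntg sham arrays. The groups separated in dnPI3K and caPI3K hearts and overlapped in Ntg hearts through sham replicate 4. *Ltbp4* rose by 0.69 in dnPI3K hearts (SE 0.12, adjusted p = 0.000338) and by 0.58 in caPI3K hearts (SE 0.12, adjusted p = 0.00808). In Ntg hearts 0.38 (adjusted p = 0.132) did not pass, and 0.51 (adjusted p = 0.00396) passed without Ntg sham replicate 4.

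*Ltbp1*, a widely studied carrier of latent TGF-beta, was not called after MI in any genotype. It had 306, 580, 469 and 471 on the dnPI3K MI arrays, against 548, 553, 594 and 732 on the dnPI3K sham arrays. It had 419, 479, 505 and 331 on the caPI3K MI arrays, against 510, 414, 508 and 476 on the caPI3K sham arrays. It had 352, 363, 509 and 520 on the Ntg MI arrays, against 604, 552, 521 and 541 on the Ntg sham arrays. Only in Ntg hearts were the MI arrays below each sham array, by a narrow gap, as for 2.5% of all genes. The changes of -0.43 (adjusted p = 0.119), -0.15 (adjusted p = 0.811) and -0.36 (adjusted p = 0.391) in dnPI3K, caPI3K and Ntg hearts did not pass.

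**Figure D3:**
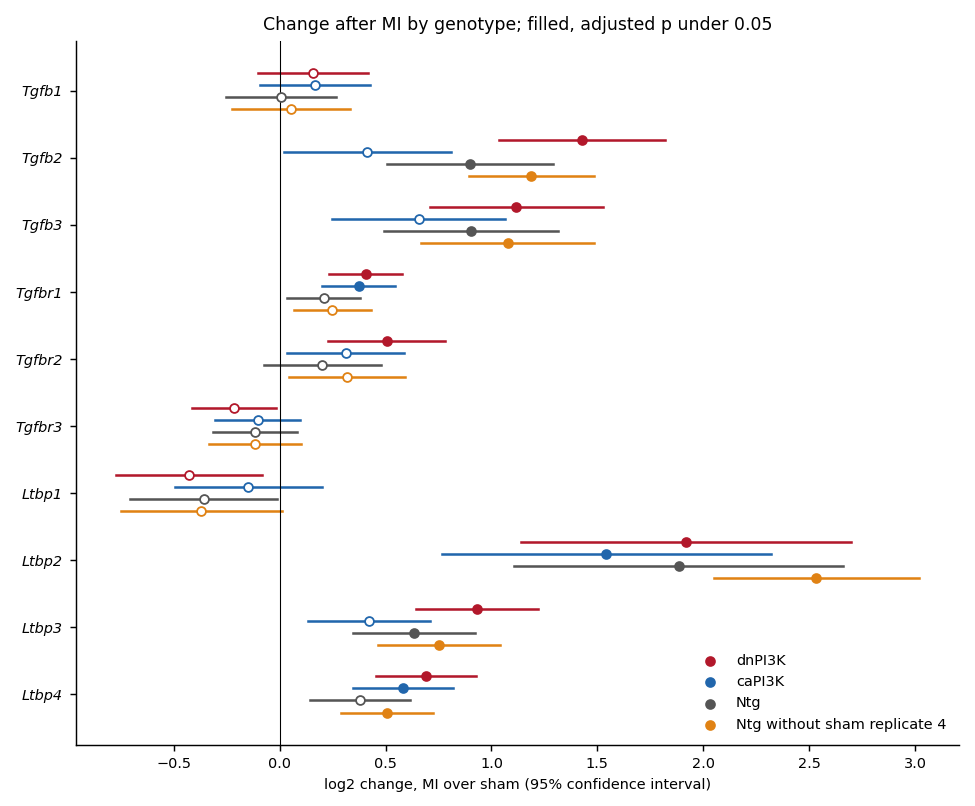
Log2 change of each gene after MI over sham (horizontal axis) with its 95% confidence interval from the fit, in dnPI3K, caPI3K and Ntg hearts and in Ntg hearts without sham replicate 4. Filled points have an adjusted p under 0.05; *Ltbp2* lies furthest right, *Tgfb1* near 0, and *Tgfbr3* and *Ltbp1* left of 0.

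The calls in Ntg hearts depended on single arrays, though each change stayed above 0. With each of the 8 Ntg arrays left out in turn, *Tgfb2* passed in 2 fits (0.71 to 1.19), *Tgfb3* in 2 (0.81 to 1.08), *Ltbp3* in 2 (0.59 to 0.75) and *Ltbp2* in 4 (1.48 to 2.53). Leaving out Ntg sham replicate 1, 2 or 3, or Ntg MI replicate 2, ended the call of each of these genes. Leaving out Ntg sham replicate 4 kept them all. In dnPI3K hearts *Tgfb2*, *Tgfb3*, *Tgfbr1*, *Ltbp2*, *Ltbp3* and *Ltbp4* passed in 8 of 8 such fits.

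Over the genotypes together, the 12 MI arrays lay above the 12 sham arrays for 2 of the 10 genes, *Tgfbr1* and *Ltbp3*, against 0.115% of all tested genes. When Ntg sham replicate 4 was set aside, which was chosen after seeing the data, *Tgfb2*, *Tgfb3*, *Ltbp2* and *Ltbp4* joined them, making 6 of 10, against 0.522% of all tested genes. Without that array 5 members rose in Ntg hearts, *Ltbp4* being added, where 4.55% of all genes were called. Without the 3 caPI3K sham arrays with Y-linked signal, 1 caPI3K sham array remains, assumed to vary like the other groups. In that fit 0 members and 0.061% of all genes were called after MI in caPI3K hearts, with *Ltbp2* at 2.09, *Ltbp4* at 0.62 and *Tgfbr1* at 0.30.

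Between infarcted hearts, the comparison asks whether the level reached after MI differed with PI3K activity. *Tgfb2* was lower in caPI3K MI than in dnPI3K MI hearts by -0.85 log2 units (SE 0.19, adjusted p = 0.00775), with 901 to 1102 on the caPI3K MI arrays, against 1597 to 2415 on the dnPI3K MI arrays, and no overlap. It was the only member called there, where 4.23% of all genes were called and 1.31% were lower, 16.1% had an unadjusted p under 0.05, and 4.33% had their caPI3K MI arrays all below the dnPI3K MI arrays. The other 3 probe sets of *Tgfb2* had -0.67, -1.06 and -1.08, and all but the first passed when tested by themselves. *Ltbp4* followed at -0.39 (SE 0.12, adjusted p = 0.0504), just outside the threshold. Its arrays overlapped, at 2825 to 3504 in caPI3K MI and 3442 to 4750 in dnPI3K MI hearts. The second probe set of *Ltbp3* was lower in caPI3K MI hearts too (-0.66, adjusted p = 0.0175), but the brightest one was not called (-0.26).

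Between dnPI3K MI and Ntg MI hearts 0 members were called (limma; 2.59% of all genes), and 3 had an unadjusted p under 0.05. These were *Tgfb2* (0.57, adjusted p = 0.123), *Tgfbr2* (0.30, adjusted p = 0.279) and *Ltbp4* (0.33, adjusted p = 0.138). For *Tgfb2* and *Ltbp4* the 4 dnPI3K MI arrays lay above the 4 Ntg MI arrays, as for 3.35% of all genes, and 15.2% had an unadjusted p under 0.05. Between caPI3K MI and Ntg MI hearts 0 members were called by limma and 0 had an unadjusted p under 0.05, where 0% and 4.63% of all genes did.

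The size of the MI response was compared between genotypes as a difference of differences. No gene of 14763 was called in any of these 3 tests by limma, so 0% is the background in each. Members with an unadjusted p under 0.05 numbered 2 for caPI3K against dnPI3K, 0 for dnPI3K against Ntg and 0 for caPI3K against Ntg, where 10.2%, 7.6% and 5.53% of all genes had one. For *Tgfb2* the MI response was smaller in caPI3K than in dnPI3K hearts by 1.01 log2 units as measured (-1.01, SE 0.27, 95% confidence interval -1.57 to -0.46, adjusted p = 0.176). Of 28 alternative settings 2 made it pass, a fit of only the 4 groups concerned (adjusted p = 0.0202) and array weights (0.0441), and 26 did not, among them the 16 that leave out 1 array. Without the arrays with Y-linked signal it was -0.81 (adjusted p = 0.845). The other was *Ltbp3* (-0.51, SE 0.20, adjusted p = 0.35). Without Ntg sham replicate 4, the MI response in caPI3K against Ntg hearts had 95% confidence intervals that left out 0 for *Tgfb2* (-0.77, -1.18 to -0.37, against -0.48 with all arrays) and *Ltbp2* (-0.99, -1.65 to -0.33, against -0.34), and neither was called (adjusted p = 0.208 and 0.389). In dnPI3K against Ntg hearts the value for *Tgfb2* was 0.24 without that array, against 0.53 with it, and for *Ltbp2* -0.62, against 0.036. A call after MI in one genotype and not in another is therefore not shown to be a difference between genotypes.

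No member was called by limma between dnPI3K sham and Ntg sham (1.14% of all genes), caPI3K sham and Ntg sham (0.278%) or caPI3K sham and dnPI3K sham (9.9%). An unadjusted p under 0.05 was found for 0, 1 and 1 of the 10 genes, against 10.8%, 11.2% and 21.3% of all genes, both times *Ltbp4*, at -0.26 for caPI3K sham over Ntg sham and -0.28 for caPI3K sham over dnPI3K sham. The first of these was -0.13 (95% confidence interval -0.35 to 0.083) without Ntg sham replicate 4, and the second -0.32 (-0.71 to 0.073) without the arrays with Y-linked signal. Without Ntg sham replicate 4, *Ltbp2* was higher in caPI3K sham than in Ntg sham hearts (0.88, adjusted p = 0.0414; 2.79% of all genes called), and *Tgfb2* had 0.49 (adjusted p = 0.0623). In dnPI3K sham over Ntg sham hearts the same fit gave *Ltbp2* nearly the same value (0.87, adjusted p = 0.0778), which was 0.21 with all arrays, and *Tgfb2* 0.33 (adjusted p = 0.365). Ntg sham replicate 4, which was set aside after seeing the data, read 820 for *Ltbp2*, and the remaining Ntg sham arrays 81.6 to 158. The caPI3K sham array without Y-linked signal, replicate 4, read 160, so the higher caPI3K sham values were those of the arrays with Y-linked signal.

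The order of group means was much the same in the genes that rose. The dnPI3K MI mean was the highest for *Tgfb2*, *Tgfb3*, *Tgfbr1*, *Tgfbr2*, *Ltbp2*, *Ltbp3* and *Ltbp4*, and the 3 MI means stood above the 3 sham means for each of these. Steps between neighbours in that order beyond the larger of their SDs were few. For *Tgfb2* they lay between the means of dnPI3K MI and Ntg MI, Ntg MI and caPI3K MI, and caPI3K MI and caPI3K sham. Neighbouring sham means did not differ beyond their spread. The arrays of Ntg MI (1099 to 1294) and caPI3K MI (901 to 1102) overlapped, and no member was called between these groups. Ntg sham replicate 4, at 1185, was above the caPI3K MI arrays. For *Tgfb3*, *Tgfbr1*, *Ltbp2*, *Ltbp3* and *Ltbp4* one lay between the lowest MI group and the highest sham group, and for *Ltbp2* and *Ltbp4* another set dnPI3K MI above Ntg MI. For *Tgfbr2* no neighbouring means differed beyond the SD. For *Tgfbr3* and *Ltbp1* the highest mean was that of dnPI3K sham, and the one such step was in *Ltbp1*, between Ntg sham and caPI3K sham. For *Tgfb1* there was none.

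Over 45 pairs and 24 arrays the median Pearson r was 0.38, and 0.24 (-0.43 to 0.71) after group means were taken off, so arrays of a group did not rank alike for all members. The genes most like each member, by Pearson r over the 24 arrays, are given without a test, since the arrays share groups and scaling. For *Tgfb2* they were *Fndc3b* (0.93), *Enah*, an actin regulator (0.91), and *Rtn4*, a membrane-shaping protein (0.90). For *Tgfb3* they were *Loxl1*, an elastin crosslinking enzyme (0.90), *Nox4*, an NADPH oxidase (0.88), and *Rcan1*, a calcineurin regulator (0.88). *Nox4* was also nearest to *Ltbp3* (0.94), followed by *Pdgfrl* (0.94) and *Itgbl1* (0.93).

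*Ltbp2* went with *Col5a2*, a fibrillar collagen chain (0.95), *Postn*, a matrix protein of activated fibroblasts (0.95), and *Serpinf1* (0.94). *Ltbp4* went with *Mmp2*, a gelatinase (0.95), *Naalad2* (0.95) and *Gpc6*, a glypican (0.94). *Tgfbr1* went with *Fbln5*, an elastic fibre protein (0.90), *Pmp22* (0.90) and *Islr* (0.89). *Tgfbr2* went with *Timp2*, a metalloproteinase inhibitor (0.93), *Rcn3* (0.90) and *Dap* (0.89). Within groups these r fell to between 0.53 (*Nox4* with *Tgfb3*) and 0.87 (*Timp2* with *Tgfbr2*).

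The rest of the pathway was counted in 8 lists. Proteins that release or carry latent TGF-beta gave 4 of 13 tested genes higher after MI in dnPI3K, 2 in caPI3K and 3 in Ntg hearts. *Mmp2*, a protease, rose by 0.95, 0.58 and 0.60 and *Itgb5*, an integrin chain, by 0.58, 0.55 and 0.48 in those genotypes. *Mmp14* (1.03) and *Itgb1* (0.32) rose in dnPI3K hearts and *Itgav* (0.54), the alpha chain of the releasing integrins, in Ntg hearts. The list's median change was 0.32, 0.18 and 0.28.

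The microfibril genes, to which latent binding proteins attach, gave 8 of 11 higher in dnPI3K, 5 in caPI3K and 2 in Ntg hearts (6 without Ntg sham replicate 4), with medians of 0.79, 0.77 and 0.49. *Mfap5* rose by 1.39, 1.13 and 1.16, and *Mfap4* by 4.59, 4.69 and 4.12. *Mfap4* read 576 to 1991 on the MI arrays (median 962), against 11.2 to 579 on the sham arrays (median 19.4), so that the size of its change depends on the pseudocount. *Fbln5* and *Fbln1* rose in dnPI3K (0.88 and 0.55) and caPI3K hearts (0.67 and 0.96), and *Fbln2* in dnPI3K hearts (0.90).

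For transducers and for other receptors, ligands and co-receptors, counts are set beside the share of all genes that rose. That share was 4.19% in dnPI3K, 0.853% in caPI3K and 0.677% in Ntg hearts, so lists this short cannot show a shortage of calls. Of 14 Smads and other transducers 1 rose, *Smad1* in dnPI3K hearts (0.40, SE 0.10, adjusted p = 0.0101), against 0 in caPI3K and 0 in Ntg hearts (limma). Of 9 other receptors of the superfamily 0 were called, and of 16 other ligands 1, *Lefty1*, a ligand that opposes Nodal, in dnPI3K hearts (0.68, adjusted p = 0.0188). Of 8 co-receptors 0 rose and 1 fell, *Hjv*, a bone morphogenetic protein co-receptor, by 0.45 in caPI3K hearts.

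Of 15 inhibitors 6 rose in dnPI3K, 3 in caPI3K and 4 in Ntg hearts, with medians of 0.34, 0.15 and 0.27. *Fmod* and *Bgn*, proteoglycans that bind TGF-beta, rose by 1.35, 1.28 and 1.28 and by 1.30, 0.98 and 1.04. *Pmepa1*, a feedback inhibitor, rose by 0.86 in dnPI3K and 0.83 in Ntg hearts. *Skil*, a Smad corepressor, rose by 0.34 in dnPI3K and 0.40 in caPI3K hearts, and *Smurf2*, a ubiquitin ligase for Smads and receptors, by 0.31 in dnPI3K and 0.37 in Ntg hearts.

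Of 26 genes known to respond to TGF-beta, 15 rose in dnPI3K, 7 in caPI3K and 8 in Ntg hearts (15 without Ntg sham replicate 4), and 0 fell, with medians of 0.81, 0.75 and 0.87. *Comp*, a cartilage matrix protein, rose by 2.29, 1.43 and 1.75, *Nox4* by 2.09, 1.29 and 1.74, *Postn* by 1.80, 1.66 and 1.77, *Fstl1* by 1.25, 0.83 and 1.01 and *Ccn2*, connective tissue growth factor, by 0.58, 1.01 and 0.87. These genes answer to other signals too.

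**Figure D4:**
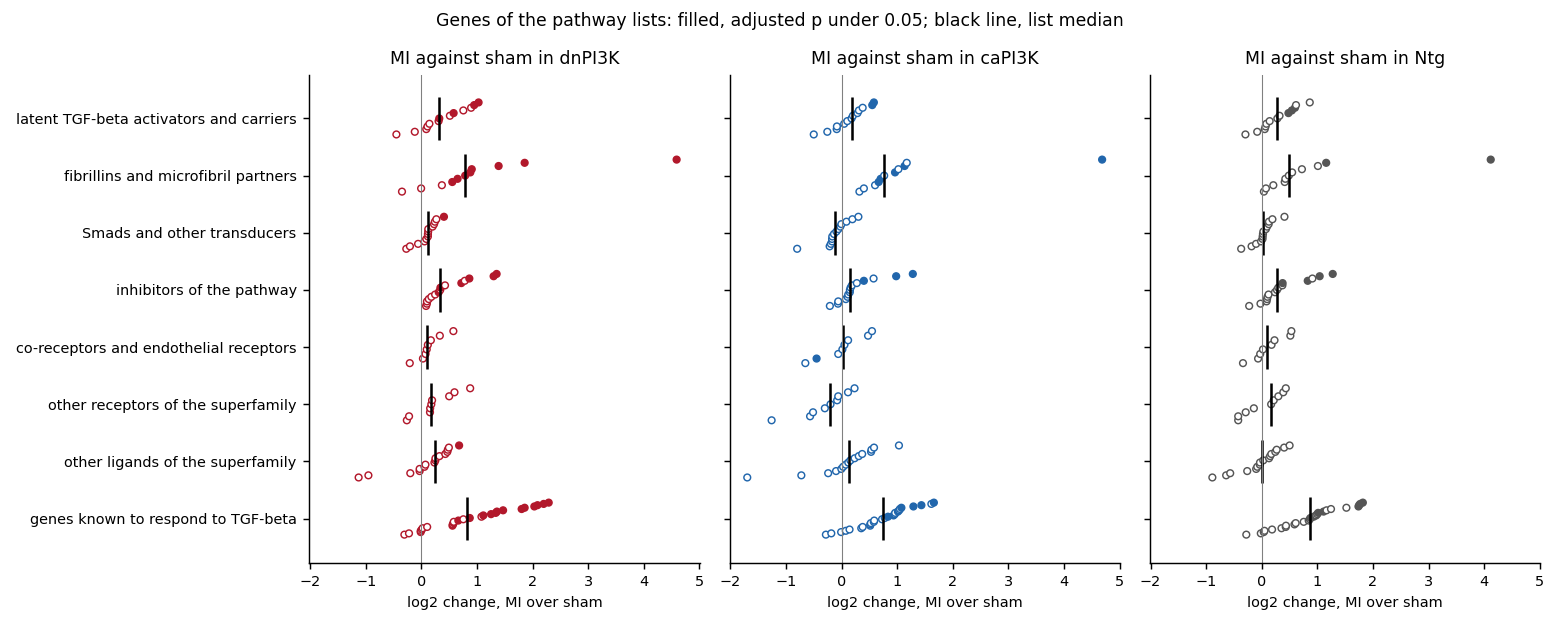
Log2 change after MI over sham (horizontal axes) of each tested gene in the 8 pathway lists, in dnPI3K, caPI3K and Ntg hearts. Filled points have an adjusted p under 0.05 and black lines are list medians; the medians of the microfibril and TGF-beta-responsive lists lie furthest right, and those of Smads and other transducers near 0.

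Of the TGF-beta-responsive genes, 5 of 26 were lower in caPI3K MI than in dnPI3K MI hearts, the contrast in which *Tgfb2* was called, and 0 were higher. They were *Comp* (-1.11), *Lox*, which crosslinks collagen (-0.91), *Ccn2* (-0.76), *Tagln* (-0.51) and *Acta2*, smooth muscle actin (-0.48), of which *Lox*, *Tagln* and *Acta2* were named after their values were seen. *Fmod* (-0.62) and *Itgb5* (-0.41) were also lower in caPI3K MI hearts. *Itgb6* (0.72) and *Hjv* (1.13), both named after their values were seen in this contrast, were higher. Of these genes *Ccn2* (-1.20), *Fmod* (-0.54), *Itgb5* (-0.38) and *Hjv* (1.37) also differed, in the same direction, between caPI3K sham and dnPI3K sham hearts.

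Markers of several cell types moved in the same comparisons. Of 6 fibroblast genes 2 rose in dnPI3K, 2 in caPI3K and 1 in Ntg hearts, and their summed signal was 66144 to 79945 in dnPI3K MI, against 56625 to 66798 in dnPI3K sham hearts. It was 60148 to 71169 in caPI3K MI, against 50881 to 56517 in caPI3K sham hearts. It was 60646 to 69412 in Ntg MI, against 46730 to 73053 in Ntg sham hearts, the highest being replicate 4. Macrophage markers summed to 11194 to 15815 in dnPI3K MI, against 9440 to 12469 in dnPI3K sham hearts. In caPI3K hearts they summed to 11955 to 14172 after MI, against 8943 to 11324, and in Ntg hearts to 10248 to 14845, against 9165 to 12014. Single arrays set the top of 2 groups. Apart from replicate 4 the dnPI3K MI arrays read 12127 or less, and apart from replicate 1 the Ntg MI arrays 10668 or less. Of the 6 macrophage genes 1, 0 and 0 rose in dnPI3K, caPI3K and Ntg hearts. The median change of the 6 cardiomyocyte markers after MI was -0.24 in dnPI3K, -0.086 in caPI3K and -0.22 in Ntg hearts, with 1 called, *Tnni3*, cardiac troponin I, in dnPI3K hearts (-0.35, adjusted p = 0.0131). Of 6 smooth muscle and pericyte markers 1 rose, *Pdgfrb* in dnPI3K hearts (0.41, adjusted p = 0.00162), and the 1 adipocyte marker tested, *Adipoq*, fell there (-1.29, adjusted p = 0.00986). These markers were named after their values were seen. Between caPI3K MI and dnPI3K MI hearts, where *Tgfb2* was called, 1 of 6 fibroblast, 1 of 6 smooth muscle and pericyte and 1 of 4 mesothelial markers were lower in caPI3K MI hearts. Of all genes 1.31% were lower there, and no cardiomyocyte, endothelial, macrophage, platelet, lymphocyte, adipocyte or skeletal muscle marker was called. The smooth muscle and pericyte marker that was lower was *Acta2*, already counted above among the TGF-beta-responsive genes. Mesothelial markers (4 genes, of which 1 rose in dnPI3K hearts) summed to 401 to 820 in dnPI3K MI, against 217 to 381 in dnPI3K sham hearts. The top value was on replicate 1, which stood apart, and the other dnPI3K MI arrays read 401 to 531. These genes were dim, with 4.95 to 151 each on the dnPI3K sham arrays. The 40th percentile of an array was 66.9 to 104. The 4 platelet markers, in cells known to store TGF-beta, gave 2471 to 3399 in dnPI3K MI, against 2866 to 4178 in dnPI3K sham hearts. The 4 lymphocyte markers that passed the filter summed to 122 to 428 over all arrays, and 0 of them were called after MI in any genotype (limma). The part of these cell types in the changes of the 10 genes was not tested.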

How the data were processed

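Per the labels, RNA of mouse hearts was hybridised to 1-colour Affymetrix arrays, 24 in 6 groups of 4. The deposited values are linear signal intensities. MAS5 is named in the submitters' processing notes, with neither its version nor its scaling target given in the sources used here. Every array has a trimmed mean of 500 after 2% of values are cut at each end, so no further normalization was applied. Detection calls were not used here. The number of arrays limits the precision.

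Of 45101 probe sets, 34945 name 1 gene in the annotation given, 932 several and 9160 none. Those above the 40th percentile of their array on at least 4 arrays were kept, and the brightest of each gene gave 14763 genes. Values were tested as log2(signal + 11.2), the pseudocount being the median signal divided by 10, with limma 3.58.1 under R 4.3.3: 6 group means, 18 residual degrees of freedom, an intensity trend, Benjamini-Hochberg adjustment over all genes. MI was set against sham per genotype, these effects were compared with each other, and genotypes were compared within each operation. The code was tested on simulated data. Promoter windows come from RefSeq tables of GRCm38.p6, where 8 of the 10 genes had an entry; plots used matplotlib 3.10.9 (Python 3.11.15).

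The 10 genes and the lists were chosen with earlier results of these data known. All 10 genes are described; of each list at most 5 genes are named, those called after MI in most genotypes, ties going to the smaller p in dnPI3K hearts; and for each gene called after MI in at least 1 genotype the 3 genes of highest r are named. Alternatives were other pseudocounts, no low-signal filter, quantile normalization, other probe sets, other variance models, a term for array number, and leaving out arrays. Array numbers are the submitters' and their meaning is not stated.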

Additional observations from a re-analysis of the deposited data

Results flagged for a closer look

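In groups of 4 arrays, a single array's distance from its nearest neighbour, divided by the range of the group, was set against Dixon's critical value at the 95% level. Of 60 groups tested (10 genes in 6 groups) 7 passed it, and chance gives about 1 in 20. *Ltbp3* had 2498 on Ntg sham replicate 4, far above the other Ntg sham arrays at 1774 to 1815. *Tgfb2* was high on dnPI3K MI replicate 2, at 2415, and on dnPI3K sham replicate 2, at 841. *Tgfbr1* was high on Ntg MI replicate 2, at 2079. The low ones were all caPI3K sham arrays: *Tgfb1* on replicate 1 at 460, *Tgfbr3* on replicate 3 at 1959 and *Ltbp2* on replicate 4 at 160, the last being the array without Y-linked signal. Without dnPI3K MI replicate 2 or dnPI3K sham replicate 2 the rise of *Tgfb2* in dnPI3K hearts was still called, and over the 8 arrays left out in turn it was 1.29 to 1.54.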

How the results depend on the processing

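No paired analysis was possible because nothing pairs the arrays of different groups: array numbers are unique, and replicates were numbered in accession order. Members called after MI in dnPI3K hearts were 7, and 2 by the second brightest probe set, where 3 of the 10 genes have none. In caPI3K hearts they were 3, against 0 by the second brightest probe set, 1 without an intensity trend and 0 without the arrays with Y-linked signal. In Ntg hearts they were 4, against 0 by the second brightest probe set, with only the groups compared, without an intensity trend, and without sham arrays 415 to 418. With only the groups compared or with array weights, 1 member passed for the MI effect in caPI3K against dnPI3K, and 1 for dnPI3K MI against Ntg MI. For caPI3K MI against dnPI3K MI 2 passed with a pseudocount of 32, quantile normalization, the second brightest probe set, array weights or a term for array numbers under 1000. The cause was not tested. The share of all genes called is not given here for these settings or for the arrays left out in turn. A lower or higher count is therefore not a result about the 10 genes in particular. Leaving out each array in turn gave 6 to 7 members for MI in dnPI3K, 1 to 2 in caPI3K and 0 to 5 in Ntg hearts, 0 to 1 for caPI3K sham against Ntg sham and against dnPI3K sham, 1 to 2 for caPI3K MI against dnPI3K MI, and 0 to 0 for the other 6 comparisons. Directions changed for *Tgfb1* after MI in Ntg hearts (0.0043), to -0.0049 by quantile normalization, -0.020 without sham arrays 415 to 418, and -0.060, -0.031, -0.10 and -0.027 without Ntg sham replicates 1 and 3 and Ntg MI replicates 1 and 2 (-0.10 to 0.077 over the 8 arrays left out in turn). *Tgfbr2* in Ntg hearts had -0.0076 without sham arrays 415 to 418. *Ltbp1* had 0.17 in Ntg hearts by the second brightest probe set and 0.033 in caPI3K hearts with the term for array numbers. In the other single-gene values under an alternative, 530 kept direction and side of the threshold, 62 lost the call and 6 gained one.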
